A study of Mus musculus with 6 samples.

Results

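The ubiquitin-specific protease (Usp) genes were described in fully-grown germinal vesicle (GV) oocytes of C57BL/6 mice, the prophase-arrested oocytes held in large antral follicles. Oocytes were Rtcb knock-out (Rtcb KO) or wild type (WT), with 3 libraries of each, and each library held the polyadenylated RNA of 10 oocytes collected 44 to 48 h after PMSG, a gonadotropin that stimulates follicle growth. Titles of both genotypes carry the tag 6W, and the sources used here do not give the driver or extent of the deletion. Rtcb encodes the RNA ligase that joins tRNA exons. Values are FPKM (fragments scaled to transcript length and sequencing depth), normalized by the authors to ERCC spike-in RNA.

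Members were chosen by symbol, as rows that start with Usp and a number, and Usp39, a spliceosome gene, was left out. That gave 51 of 23235 genes in the table, of which 45 averaged 1 FPKM or more across all 6 libraries and entered the test. No expression value decided the place of a single gene, but the family was selected from these data with the Rtcb KO and WT values known. Its counts and medians are therefore a description of the family, and nothing is tested for it as a set. The rule also takes in Usp6nl, which encodes a GTPase-activating protein, a type that switches Rab GTPases off, and not a protease.

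Usp enzymes are cysteine proteases that cut ubiquitin from proteins or take apart ubiquitin chains, and they form the largest family of deubiquitinases. Through this they change how long substrates last, where membrane receptors go and how histones are marked. GV oocytes store mRNA for the meiotic divisions and the early embryo at a time of little new transcription, and several Usp enzymes are known in oocytes and embryos for work on chromatin, endosomes and protein turnover.

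The libraries matched their labels at the deleted gene and at oocyte markers. Rtcb, listed as D10Wsu52e, was at 3.82, 2.62 and 2.49 FPKM in Rtcb KO and at 136, 133 and 113 FPKM in WT. All 14 oocyte markers were present, summing to between 28388 and 30017 FPKM in Rtcb KO and between 43628 and 45485 FPKM in WT. Of 18 granulosa and cumulus markers, 11 stayed under 1 FPKM in every library, with sums of 48.3 to 61.7 FPKM in Rtcb KO and 61.3 to 67.4 FPKM in WT, mostly from Cyp19a1, Nr5a2 and Inha. Inha was the highest of them in KO 3, at 17.8 FPKM, against 3.50 to 8.36 FPKM in the other 5 libraries, and Ptx3 was listed at 0 throughout. Of 11 markers of other ovarian and blood cells, 8 stayed under 1 FPKM in every library. Their sums were 24.98 to 31.1 FPKM in Rtcb KO and 35.2 to 53.8 FPKM in WT, mostly from Pecam1 and Krt8. Lyz2 was at 5.46 FPKM in KO 2, against 0 to 0.157 FPKM in the other 5 libraries. Hbb-b1, Hba-a1 and Acta2 were listed at 0 throughout. The part of these cells in the Usp values was not tested. Every Rtcb KO value carries one common factor and every WT value another, whose quotient is 0.667 (a log2 shift of −0.58 in Rtcb KO), so results are given as deposited and with both factors removed.

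Usp transcripts were lower in Rtcb KO oocytes as a summed pool and for most single genes. The summed level of the 51 members was 1350, 1367 and 1310 FPKM in the 3 Rtcb KO libraries and 2684, 2515 and 2560 FPKM in the 3 WT libraries. The groups did not overlap, and the mean sum in Rtcb KO was 0.519 times that in WT, against 0.741 for the sum of all genes. With the genotype factors removed the ratios were 0.779 for the Usp genes and 1.11 for all genes. As a share of all FPKM in a library, which the factors cannot change, Usp genes made up 0.143, 0.137 and 0.135% in Rtcb KO and 0.212, 0.191 and 0.190% in WT. In bulk RNA, less RNA per oocyte and fewer intact oocytes in a library cannot be told apart.

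Genes were tested across all 12029 genes with limma on log2(FPKM + 1), two-sided, and called at a Benjamini-Hochberg adjusted p below 0.05. On this scale the size of change is understated for low genes. Nothing in the labels says that libraries came from separate animals, so these p-values measure only the spread between libraries. The genotype factor is constant within a genotype, so p-values on the deposited values hold no uncertainty of that factor. Of the 45 tested members, 4 were higher and 35 lower in Rtcb KO (8.89% and 77.8%), beside 9.29% and 54.0% of all tested genes. With the genotype factors removed, 4 were higher and 16 lower (8.89% and 35.6%), beside 25.7% and 18.0% of all tested genes. After scaling the libraries to equal summed FPKM, 4 were higher and 24 lower, beside 19.0% and 25.8% of all tested genes. The median log2 difference of the members was −0.82, that of all tested genes −0.47, and with the factors removed −0.25 and 0.043. The member median thus lay below that of all genes by 0.35 as deposited, by 0.31 with equal totals and by 0.29 with the factors removed.

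The same picture held in the raw order of the libraries. Among the 45 tested members, all 3 Rtcb KO values lay above all 3 WT values for 4 (8.89%) and below them for 37 (82.2%). These shares stood beside 10.2% and 57.5% of all tested genes. With the factors removed these were 7 and 20 tested members (15.6% and 44.4%), beside 31.7% and 24.7% of all tested genes. A fall of at least 2-fold on the log2 scale was called for 14 members as deposited, beside 14.9% of all tested genes, and for 2 members with the factors removed, Usp46 and Usp51, beside 1.22%. Both sets of calls share 16 members that were lower, namely Usp4, Usp5, Usp8, Usp9x, Usp10, Usp11, Usp13, Usp15, Usp19, Usp20, Usp24, Usp30, Usp33, Usp46, Usp48 and Usp51. They also share the 4 that were higher, Usp12, Usp22, Usp35 and Usp53. The other 19 lower members were called as deposited but not with the factors removed.

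**Figure D1:**
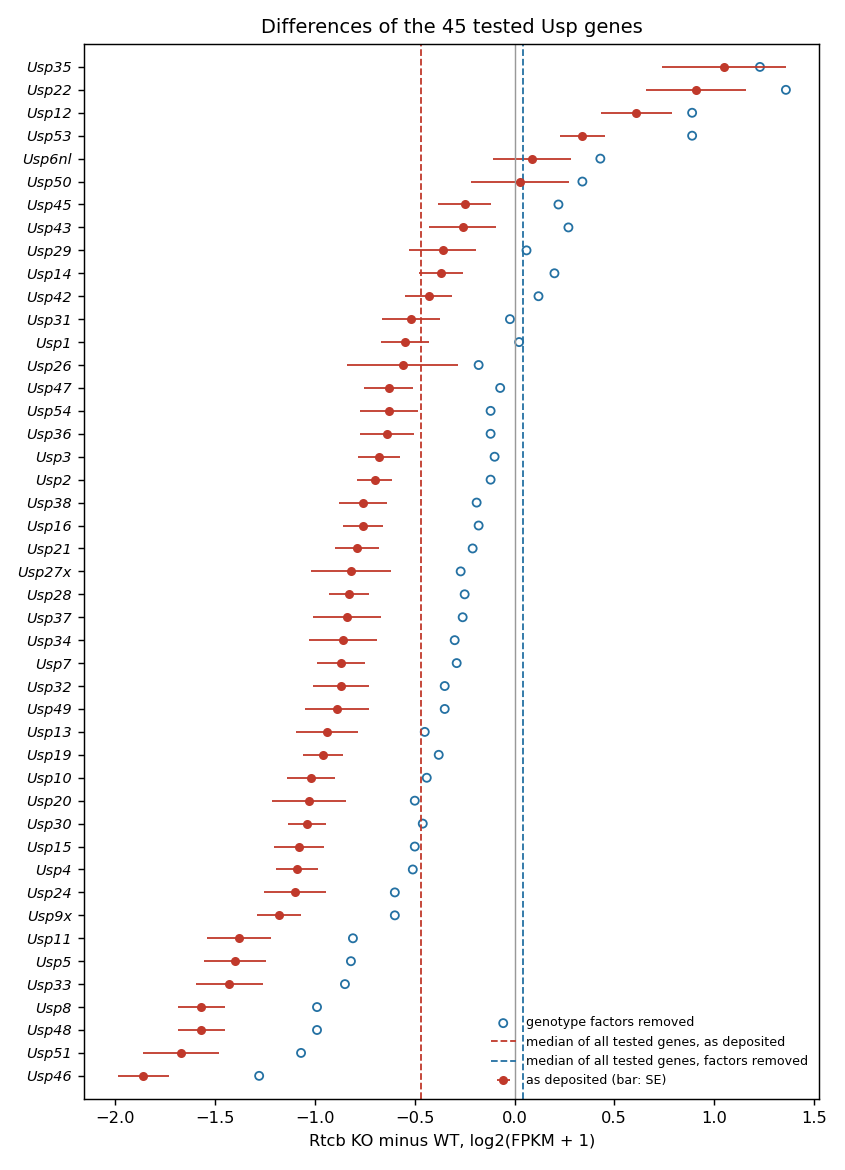
Log2 difference of Rtcb KO minus WT on the log2(FPKM + 1) scale for the 45 tested Usp genes, ordered by size. Filled points with bars are the values as deposited with their SE, open circles the values with the genotype factors removed, and dashed lines the medians of all tested genes (−0.47 and 0.043). Usp46 stands lowest and Usp35 highest as deposited, and most members lie left of the median line of their own scaling.

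The 250 bases before the annotated start are shown for 4 tested members in the promoter table. These had the 2 lowest and 2 highest log2 differences among the called members in that table. Usp22, with a log2 difference of 0.91, lay above Usp12 but was not in it. The sequences were taken from RefSeq on build GRCm38.p6, which differs from the build of the expression values. The start used for Usp35, unlike those of the others, was not matched to a transcript in a second annotation, GENCODE. The table held 39 of the 51 members. Usp1, Usp5, Usp9x, Usp14, Usp17l5, Usp18, Usp22, Usp33, Usp42, Usp43, Usp44 and Usp53 were not used. Capitals mark GGGCGG, the GC box known to bind SP1, or its reverse complement.

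Usp46, lower in Rtcb KO, chr5:74068412-74068661, minus strand: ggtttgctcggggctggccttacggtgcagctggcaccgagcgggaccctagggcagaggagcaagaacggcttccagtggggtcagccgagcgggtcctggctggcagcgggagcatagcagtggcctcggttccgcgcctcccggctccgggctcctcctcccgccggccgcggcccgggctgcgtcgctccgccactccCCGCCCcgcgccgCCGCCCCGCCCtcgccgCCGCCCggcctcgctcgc

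Usp51, lower in Rtcb KO, chrX:153006219-153006468, plus strand: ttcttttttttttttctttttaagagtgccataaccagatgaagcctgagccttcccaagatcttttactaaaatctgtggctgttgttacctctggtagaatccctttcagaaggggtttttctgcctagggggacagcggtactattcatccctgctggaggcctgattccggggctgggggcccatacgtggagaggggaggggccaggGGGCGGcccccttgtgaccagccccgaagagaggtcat

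Usp12, higher in Rtcb KO, chr5:146794957-146795206, minus strand: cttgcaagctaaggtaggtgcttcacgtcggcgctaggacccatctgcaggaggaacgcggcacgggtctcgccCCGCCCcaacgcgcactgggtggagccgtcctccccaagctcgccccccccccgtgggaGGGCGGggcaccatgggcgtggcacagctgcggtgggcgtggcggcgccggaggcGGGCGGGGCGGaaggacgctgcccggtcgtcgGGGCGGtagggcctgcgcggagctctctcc

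Usp35, higher in Rtcb KO, chr7:97332110-97332359, minus strand: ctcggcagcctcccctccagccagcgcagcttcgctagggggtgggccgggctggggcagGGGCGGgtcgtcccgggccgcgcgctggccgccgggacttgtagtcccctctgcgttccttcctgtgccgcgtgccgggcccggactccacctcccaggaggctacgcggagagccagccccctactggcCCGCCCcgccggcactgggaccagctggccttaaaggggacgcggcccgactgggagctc

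Usp46 held 4 GC boxes and Usp12 held 5, counting overlapping matches on both strands. Usp35 held 2 and Usp51 held 1. CpG dinucleotides numbered 33 in Usp46, 30 in Usp12, 25 in Usp35 and 5 in Usp51. Among the 36 tested members with a listed start, 26 (72.2%) held a GC box, beside 56.8% of the 8495 tested genes listed and 32.7% of all 32851 promoters. CCAAT was found on either strand in 22.2% of these members, 37.4% of the tested genes listed and 33.8% of all promoters. TATAAA was found in 2.8%, 6.9% and 12.4% in the same order, and CACGTG in 11.1%, 8.4% and 6.0%. These are matches of letters in a window and say nothing of binding.

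Levels in the family spanned a wide range, and Usp46 led in WT. In Rtcb KO, 2 members averaged at least 100 FPKM, 23 were between 10 and 100, 21 between 1 and 10, and 5 below 1. In WT these numbers were 10, 19, 16 and 6. Order by mean in Rtcb KO began with Usp2 (134 ± 6.35 FPKM), Usp3 (116 ± 13.6 FPKM) and Usp46 (96.4 ± 12.1 FPKM). In WT it began with Usp46 (353 ± 42.0 FPKM), Usp2 (218 ± 13.0 FPKM) and Usp3 (186 ± 8.99 FPKM, SD, n = 3 each). Below these in WT, Usp15, Usp19, Usp28, Usp7, Usp30, Usp16 and Usp9x followed between 177 and 105 FPKM, and the libraries of neighbours in that order overlapped except between Usp46 and Usp2, Usp2 and Usp3, and Usp19 and Usp28. The 6 members highest in WT made up 43.8% of the summed Usp level in Rtcb KO and 47.7% in WT.

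Usp46, whose enzyme is switched on by the WD-repeat proteins WDR48 and WDR20, had the lowest log2 difference of the family on the log2(FPKM + 1) scale. Usp51 came first by the ratio of means and with a pseudocount of 0.1 (log2 difference −2.07, against −1.87 for Usp46). Usp46 was at 99.4, 107 and 83.1 FPKM in Rtcb KO and at 388, 364 and 306 FPKM in WT. The groups lay far apart, with a mean 3.66-fold lower in Rtcb KO (log2 difference −1.86, SE 0.128, limma adjusted p = 0.000162). With the factors removed the fall was 2.44-fold (log2 difference −1.28, adjusted p = 0.000848). Usp46 alone supplied 7.18% of the summed Usp level in Rtcb KO and 13.6% in WT, and without it the summed Usp level in Rtcb KO was 0.558 times that in WT.

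Usp12, the close relative of Usp46 with the same partners, was higher in Rtcb KO. It was at 4.19, 3.11 and 4.06 FPKM in Rtcb KO and at 1.95, 2.68 and 1.77 FPKM in WT. The lowest Rtcb KO library lay just above the highest WT library (log2 difference 0.61, SE 0.179, adjusted p = 0.0173). Usp12 stayed the minor member of the pair, at 3.84 ± 0.928% of the pair's summed FPKM in Rtcb KO and 0.603 ± 0.117% in WT (SD, n = 3 each). These shares do not depend on the genotype factors. Both genes of the shared partners were lower, and they are named here after their values were seen. Wdr48 was at 15.002 ± 2.19 FPKM in Rtcb KO and 34.8 ± 6.85 FPKM in WT (adjusted p = 0.000815). Wdr20a was at 149 ± 9.45 FPKM in Rtcb KO and 277 ± 17.9 FPKM in WT (adjusted p = 0.000203). Both stayed lower with the factors removed (log2 differences −0.58 and −0.31).

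**Figure D2:**
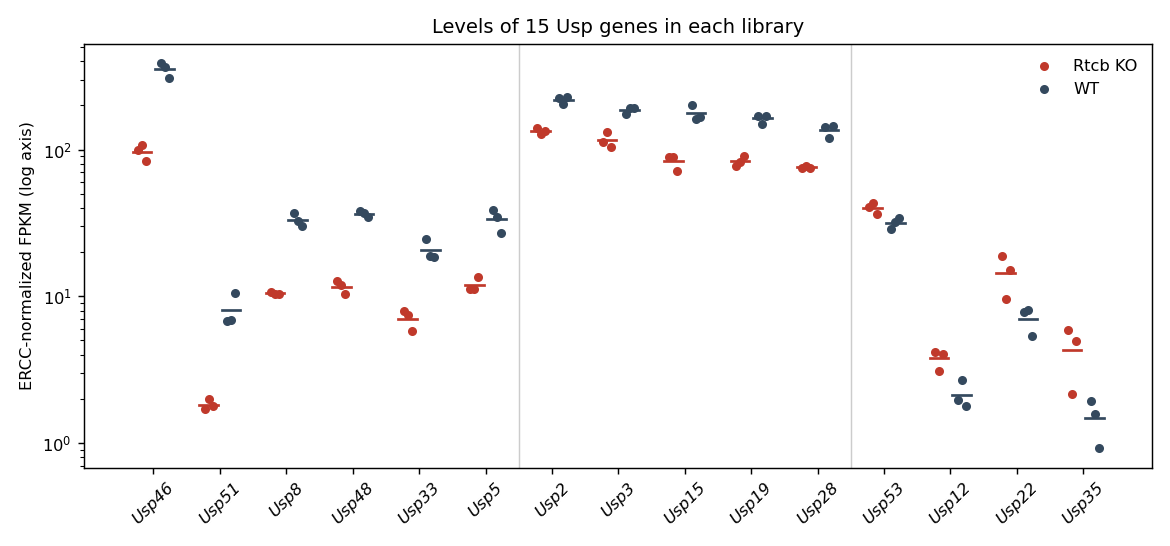
ERCC-normalized FPKM on a log axis for 15 Usp genes, with 1 point per library (red, Rtcb KO; dark, WT) and a line at the mean of 3. From left to right are the 6 lowest log2 differences on the log2(FPKM + 1) scale, 5 further genes of high WT level, and the 4 genes higher in Rtcb KO. For all 15 the points of the genotypes do not overlap, and Usp46 drops to 96.4 FPKM in Rtcb KO, against 353 FPKM in WT.

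Of 9 tested Usp genes listed under histones and chromatin, 1 was higher and 8 lower as deposited, and 1 was higher and 1 lower with the factors removed. Among all tested genes, 54.0% were lower as deposited and 18.0% with the factors removed. The share of lower members was 88.9% as deposited, above that of all genes, and 11.1% with the factors removed, below it. Both shares rest on 9 genes, and the second on a single gene. The higher member was Usp22. Usp48, which also acts on histone H2A, is counted with DNA repair and was lower under both scalings. Usp51, whose enzyme removes ubiquitin from histone H2A, was at 1.70, 1.98 and 1.77 FPKM in Rtcb KO and at 6.75, 6.93 and 10.6 FPKM in WT. It fell 4.45-fold by the means (log2 difference −1.67, SE 0.190, adjusted p = 0.000271), and 1 WT library lay well above the other 2. Usp3, another histone H2A enzyme, was at 113, 131 and 104 FPKM in Rtcb KO and at 176, 192 and 191 FPKM in WT (log2 difference −0.68, adjusted p = 0.000891). Its call ended with the factors removed (log2 difference −0.10, adjusted p = 0.456).

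Usp22, the deubiquitinase of the SAGA coactivator complex that acts on histone H2B, was at 18.8, 9.56 and 14.99 FPKM in Rtcb KO and at 7.79, 8.004 and 5.33 FPKM in WT. The Rtcb KO libraries spread widely but all lay above the WT libraries (log2 difference 0.91, SE 0.251, adjusted p = 0.0133). Usp22, Usp27x and Usp51 are close relatives that share SAGA cofactors, and the balance among them differed between the genotypes. Usp22 made up 59.2 ± 8.51% of their summed FPKM in Rtcb KO and 24.0 ± 6.75% in WT. Usp27x made up 32.9 ± 6.29% in Rtcb KO and 48.6 ± 7.11% in WT, and Usp51 7.87 ± 2.23% in Rtcb KO and 27.4 ± 7.30% in WT (SD, n = 3 each). The shared cofactor Eny2 was at 185 ± 15.5 FPKM in Rtcb KO and 221 ± 35.5 FPKM in WT and was not called (adjusted p = 0.138). Of the Atxn7 genes in the same list of partners, Atxn7l1 and Atxn7l2 were lower as deposited (log2 differences −0.97 and −0.42). Atxn7 was not called (−0.22), and only Atxn7l1 stayed lower with the factors removed (−0.42). Eny2 and the Atxn7 genes are named after their values were seen.

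Usp16, known for histone H2A and mitotic chromosomes, was at 64.4 ± 2.17 FPKM in Rtcb KO and 109.7 ± 10.4 FPKM in WT. Usp21 was at 46.2 ± 4.17 FPKM in Rtcb KO and 80.6 ± 6.87 FPKM in WT. Usp36, the nucleolar member, Usp42 and Usp49 were also lower as deposited (log2 differences −0.64, −0.43 and −0.89). None of these 5 was called with the factors removed, and Usp42 turned positive there (log2 difference 0.12). Its call as deposited was lost without WT 2 (adjusted p = 0.0544). Usp44, known from the spindle checkpoint, stayed under the filter at 0.348 ± 0.0882 FPKM in Rtcb KO and 0.535 ± 0.122 FPKM in WT.

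Of 10 tested members of membranes and organelles, 1 was higher and 7 lower as deposited, and 1 was higher and 5 lower with the factors removed. All tested genes were lower at 54.0% and 18.0% on the same scalings. Usp8, which acts on endosomal sorting of receptors together with STAM proteins, was at 10.8, 10.4 and 10.4 FPKM in Rtcb KO and at 37.0, 32.6 and 30.2 FPKM in WT. The Rtcb KO libraries were nearly equal, and all were far below WT (log2 difference −1.57, SE 0.118, adjusted p = 0.000162). Of its cofactor genes, Stam2 was higher and was at 11.02 ± 2.23 FPKM in Rtcb KO and 7.63 ± 0.778 FPKM in WT (adjusted p = 0.0388). Stam was at 6.24 ± 1.88 FPKM in Rtcb KO and 5.92 ± 0.991 FPKM in WT and was not called (adjusted p = 0.877). Both are named after their values were seen.

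Usp33, once found as a partner of the VHL protein, was at 7.91, 7.41 and 5.76 FPKM in Rtcb KO and at 24.7, 18.8 and 18.4 FPKM in WT (log2 difference −1.43, SE 0.169, adjusted p = 0.000301). Usp20, its close relative, was at 3.004 ± 0.349 FPKM in Rtcb KO and 7.28 ± 1.73 FPKM in WT (log2 difference −1.03, adjusted p = 0.00186). Both were lower under both scalings, and Usp33 held 69.8 ± 5.42% of their sum in Rtcb KO and 74.1 ± 2.14% in WT. Usp30, which sits in the outer mitochondrial membrane and opposes mitophagy, was at 57.4 ± 2.59 FPKM in Rtcb KO and 119 ± 8.91 FPKM in WT (log2 difference −1.04, adjusted p = 0.000166).

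Usp19, which has a form anchored in the endoplasmic reticulum, was at 77.2, 81.9 and 90.7 FPKM in Rtcb KO and at 170.1, 149 and 170.2 FPKM in WT (log2 difference −0.96, adjusted p = 0.000218). Usp2, the most abundant member in Rtcb KO, was at 140.1, 127 and 133 FPKM in Rtcb KO and at 224, 203 and 227 FPKM in WT (log2 difference −0.70, adjusted p = 0.000359). Usp2 was not called with the factors removed (log2 difference −0.12, adjusted p = 0.284). Usp32 was lower as deposited (log2 difference −0.87), and Usp50 (0.027) and Usp6nl (0.089) were not called.

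Usp35, the member of this group that was higher, was at 5.89, 2.14 and 4.96 FPKM in Rtcb KO and at 1.95, 1.58 and 0.920 FPKM in WT. The second Rtcb KO library lay close to WT (log2 difference 1.05, SE 0.311, adjusted p = 0.0186). Usp38, its relative, was at 36.8 ± 3.18 FPKM in Rtcb KO and 63.3 ± 6.87 FPKM in WT (log2 difference −0.76), and Usp35 made up 10.2 ± 3.70% of their sum in Rtcb KO and 2.32 ± 0.874% in WT.

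**Figure D3:**
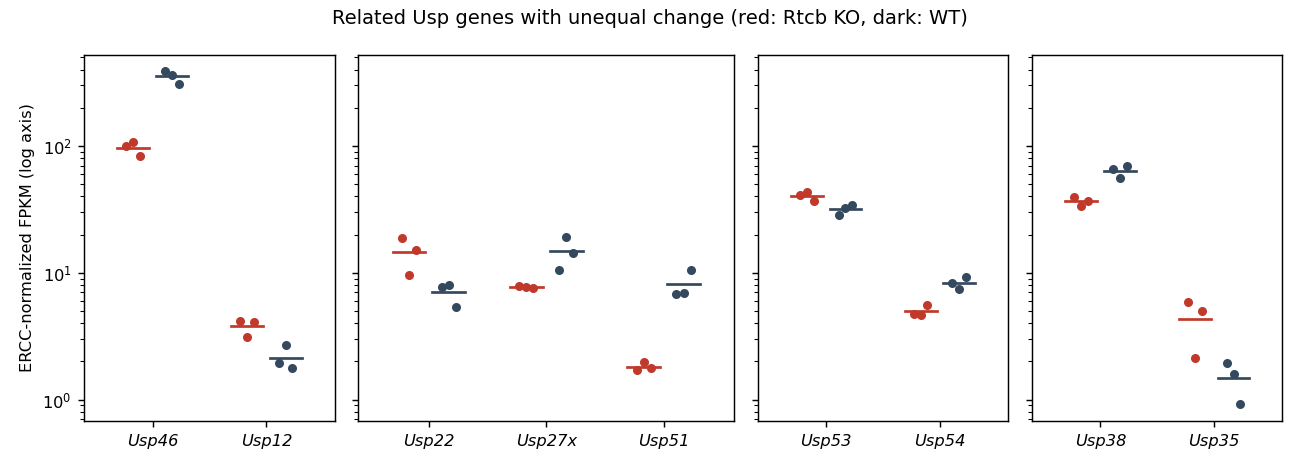
ERCC-normalized FPKM on a shared log axis for related Usp genes, with 1 point per library (red, Rtcb KO, left; dark, WT, right) and a line at the mean of 3. In each panel 1 gene is higher in Rtcb KO (Usp12, Usp22, Usp53 and Usp35) and its relatives are lower as deposited.

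Enzymes that recycle ubiquitin or work at the proteasome were lower as deposited for all 3 tested genes and for 2 of them with the factors removed, too few to set beside the 54.0% and 18.0% of all tested genes. Usp5, which takes apart free ubiquitin chains, was at 11.2, 11.1 and 13.6 FPKM in Rtcb KO and at 38.5, 34.6 and 27.1 FPKM in WT (log2 difference −1.40, SE 0.157, adjusted p = 0.000256). Usp13, its relative, was at 1.35 ± 0.0813 FPKM in Rtcb KO and 3.51 ± 0.530 FPKM in WT (adjusted p = 0.0013). Usp14, which trims chains on the proteasome, differed least, at 34.3 ± 3.47 FPKM in Rtcb KO and 44.6 ± 2.68 FPKM in WT (log2 difference −0.37, adjusted p = 0.0192). Its direction turned with the factors removed (log2 difference 0.20) and with equal totals (0.051), and its call was lost without KO 3, WT 1 or WT 2 (adjusted p up to 0.071). Opposite-strand Thoc1 covers 26.0% of the annotated Usp14 exon bases, so this value is uncertain.

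Usp genes known from DNA repair and genome checkpoints were lower for 7 of 10 tested as deposited and for 2 of 10 with the factors removed, beside 54.0% and 18.0% of all tested genes, so the second share was near that of all genes. Those 2 were Usp48 and Usp11. Usp48, which acts on histone H2A at sites of repair, was at 12.7, 11.9 and 10.4 FPKM in Rtcb KO and at 38.0, 37.1 and 34.8 FPKM in WT (log2 difference −1.57, SE 0.116, adjusted p = 0.000162). Usp11, of homologous recombination, was at 7.16 ± 0.184 FPKM in Rtcb KO and 20.5 ± 4.35 FPKM in WT (log2 difference −1.38, adjusted p = 0.000285). Usp28, known for the stability of MYC and for the damage checkpoint, was at 75.2, 77.8 and 74.5 FPKM in Rtcb KO and at 142, 119.7 and 146 FPKM in WT (log2 difference −0.83, adjusted p = 0.000336; −0.25 and 0.0771 with the factors removed).

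Usp7, which deubiquitinates MDM2, p53 and UHRF1, was at 66.7 ± 4.55 FPKM in Rtcb KO and 124 ± 17.9 FPKM in WT (log2 difference −0.87, adjusted p = 0.000535; −0.29 and 0.0784 with the factors removed). Usp1, which works with WDR48 on the Fanconi protein FANCD2 and on PCNA, was at 54.9 ± 4.53 FPKM in Rtcb KO and 81.3 ± 9.83 FPKM in WT (log2 difference −0.55, adjusted p = 0.00441). Usp1 was not called with the factors removed (log2 difference 0.023). Usp37 and Usp47 were lower as deposited (log2 differences −0.84 and −0.63), while Usp26, Usp29 and Usp45 were not called (−0.56, −0.36 and −0.25). Opposite-strand Zim3 covers 14.3% of Usp29 exon bases.

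Among members of signalling and other substrates, 1 was higher and 9 lower of 11 tested as deposited, and 1 and 6 with the factors removed. The lower shares were 81.8% and 54.5%, beside 54.0% and 18.0% of all tested genes. The higher one was Usp12. Usp15, known for TGF-beta receptors and SMAD proteins, was at 88.6, 88.4 and 71.9 FPKM in Rtcb KO and at 202, 162 and 166 FPKM in WT (log2 difference −1.08, SE 0.125, adjusted p = 0.000285). Its relative Usp4 was at 45.7 ± 2.41 FPKM in Rtcb KO and 98.9 ± 9.71 FPKM in WT (log2 difference −1.09, adjusted p = 0.000174). Usp4, Usp11 and Usp15 are related genes that were all lower under both scalings, with Usp15 at 60.9 ± 3.68% of their sum in Rtcb KO and 59.7 ± 0.388% in WT.

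Usp9x, the X-linked homolog of Drosophila fat facets, was at 45.6 ± 3.64 FPKM in Rtcb KO and 105 ± 10.8 FPKM in WT (log2 difference −1.18, adjusted p = 0.000174). Its Y-linked copy Usp9y was listed at 0 in every library. Usp24 was at 1.09 ± 0.1002 FPKM in Rtcb KO and 3.50 ± 0.471 FPKM in WT, and Usp10, which binds the G3BP stress granule proteins, at 47.8 ± 3.44 FPKM in Rtcb KO and 98.6 ± 13.3 FPKM in WT. Usp31, Usp34 and Usp38 were lower as deposited (log2 differences −0.52, −0.86 and −0.76) and were not called with the factors removed, and Usp43 was not called (−0.26). The Usp31 call was lost without WT 2 (adjusted p = 0.062).

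Usp53 and Usp54, a related pair long annotated as lacking protease activity, went in opposite directions as deposited. Usp53 was at 40.8, 43.5 and 36.5 FPKM in Rtcb KO and at 28.7, 32.2 and 34.0 FPKM in WT (log2 difference 0.34, SE 0.115, adjusted p = 0.0314). Usp54 was at 5.02 ± 0.517 FPKM in Rtcb KO and 8.35 ± 0.955 FPKM in WT (log2 difference −0.63, adjusted p = 0.00617; −0.12 and 0.508 with the factors removed). Usp53 made up 88.8 ± 1.91% of their sum in Rtcb KO and 79.1 ± 1.98% in WT.

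Each of the 4 higher members lost its call as deposited without at least 1 library. Usp53 lost its call without KO 1, KO 2, WT 1 or WT 2 (adjusted p up to 0.0871) and with the replicate number as a block (0.0529). Calls were also lost for Usp35 without KO 1, KO 3 or WT 3 (up to 0.0686), Usp12 without KO 1 or KO 3 (up to 0.0605) and Usp22 without KO 3 (0.0503). With the factors removed their adjusted p were 0.00136 for Usp53, 0.00909 for Usp35, 0.00326 for Usp12 and 0.00373 for Usp22. For the 16 members lower under both scalings, the highest adjusted p without any 1 library, run on the deposited values only, was 0.00955, for Usp20, which stood at 0.0424 with the factors removed and all 6 libraries.

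Besides Usp44, 5 members stayed under the filter. Usp17l5, of a family with near-identical copies whose reads may be shared, was at 1.64, 0.271 and 3.43 FPKM in Rtcb KO, and at 0.0674 FPKM in WT 1 and listed at 0 in WT 2 and WT 3. Usp18, which removes the ubiquitin-like ISG15, was at 0.840 FPKM in KO 2, at 0.0642 FPKM in WT 1 and listed at 0 in the other 4 libraries. Usp25, the relative of Usp28, was at 0.115 ± 0.0528 FPKM in Rtcb KO and 0.0921 ± 0.0874 FPKM in WT. Usp40 was at 0.504 ± 0.0872 FPKM in Rtcb KO and 0.640 ± 0.102 FPKM in WT, and Usp9y was the fifth. Among tested members, 7 share at least 10% of their annotated exon bases with 1 other gene, and the cDNA method keeps no strand. Besides Usp14 and Usp29 these are Usp33, Usp34, Usp38, Usp43 and Usp49, the last with 51.2% shared with Gm20517 on the same strand.

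Members had longer coding sequences and more exons than other tested genes, per GENCODE vM21, an annotation of another build used for gene properties only. The median coding length was 2748 bases for the 45 tested members and 1374 bases for the 10191 tested genes with a coding sequence (84.7% of those tested), and the median exon number was 18 and 9. Across the table, genes with longer coding sequences and more exons tended to be lower in Rtcb KO (Spearman rho −0.28 and −0.31). With transcript length rho was weaker, at −0.15. Across the 45 members, which share libraries, rho was −0.13 with coding length, 0.02 with transcript length and −0.37 with exon number. It was −0.04 with GC content and −0.45 with the WT level, which itself enters the difference. The 1707 tested genes with a coding length of 2055 to 3294 bases, the middle range of the members, had a median log2 difference of −0.67, and 66.0% were lower. With the factors removed that median was −0.15 and 29.5% were lower, beside −0.25 and 35.6% of the members. The part of gene length in the Usp values was not tested.

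Genes of the other deubiquitinase families differed in both directions. Of 31 tested genes of the UCH, OTU, Josephin, JAMM and MINDY families with Cyld, Uspl1 and Zufsp, 3 were higher and 13 lower as deposited (9.68% and 41.9%), and 15 and 2 with the factors removed (48.4% and 6.45%). All tested genes gave 9.29% and 54.0% as deposited, and 25.7% and 18.0% with the factors removed. Their median log2 difference was −0.23, or 0.35 with the factors removed, beside −0.82 and −0.25 for the Usp genes; whether the lists differ was not tested. Members of smallest p were Zufsp (26.4 ± 3.87 FPKM in Rtcb KO, 77.3 ± 1.79 FPKM in WT), Vcpip1 (12.1 ± 1.45 FPKM in Rtcb KO, 30.8 ± 2.204 FPKM in WT), Fam63a (141 ± 5.30 FPKM in Rtcb KO, 243 ± 22.7 FPKM in WT) and Fam105b, now called Otulin. Fam105b, which encodes the enzyme for linear ubiquitin chains, was at 38.0 ± 1.70 FPKM in Rtcb KO and 15.6 ± 2.26 FPKM in WT (adjusted p = 0.000216). Cyld and Uspl1, which carry a Usp-type fold under other symbols and are named after their values were seen, were higher too. Uspl1 is counted here by that fold alone, not by an activity on ubiquitin. Cyld was at 8.29 ± 2.01 FPKM in Rtcb KO and 4.40 ± 0.532 FPKM in WT (adjusted p = 0.00996), and Uspl1 at 22.8 ± 6.65 FPKM in Rtcb KO and 7.53 ± 1.77 FPKM in WT (adjusted p = 0.00143).

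Of 23 tested genes of known partners and substrates of Usp enzymes, 1 was higher and 17 lower as deposited, and 3 were higher and 12 lower with the factors removed, with medians of −0.89 and −0.31. The lower shares were 73.9% and 52.2%, beside 54.0% and 18.0% of all tested genes, for a list chosen with these values known. Uhrf1, a DNA methylation cofactor and USP7 substrate, was at 161 ± 6.62 FPKM in Rtcb KO and 455 ± 71.2 FPKM in WT. Mdm2, the p53 ubiquitin ligase, was at 45.3 ± 1.71 FPKM in Rtcb KO and 106 ± 11.4 FPKM in WT. Gmps, an activator of USP7, was at 56.5 ± 3.12 FPKM in Rtcb KO and 115 ± 6.77 FPKM in WT. Psmd2, the proteasome subunit that docks USP14, was at 48.7 ± 2.74 FPKM in Rtcb KO and 139.6 ± 22.7 FPKM in WT. All 4 were also lower with the factors removed (log2 differences from −0.91 to −0.43).

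Of 12 tested ubiquitin and E1 genes, which supply and activate ubiquitin or its relatives, 8 were lower as deposited (66.7%, beside 54.0% of all tested genes), and 4 were higher and 2 lower with the factors removed (33.3% and 16.7%, beside 25.7% and 18.0%). Those 2 were Uba1 (51.8 ± 5.42 FPKM in Rtcb KO, 145 ± 12.3 FPKM in WT) and Uba6 (3.39 ± 0.326 FPKM in Rtcb KO, 10.48 ± 0.446 FPKM in WT), the E1 enzymes of ubiquitin itself. Nae1 and Uba3, which together activate NEDD8, were lower as deposited (log2 differences −0.88 and −0.66). Of 35 tested E2 conjugating genes, 4 were higher and 18 lower as deposited (11.4% and 51.4%), close to the 9.29% and 54.0% of all tested genes. With the factors removed 13 were higher and 4 lower (37.1% and 11.4%), beside 25.7% and 18.0%. The 4 lower under both were Ube2g1 (133 ± 1.55 FPKM in Rtcb KO, 262 ± 16.5 FPKM in WT), Birc6 (4.83 ± 0.484 FPKM in Rtcb KO, 15.1 ± 2.28 FPKM in WT), Ube2w and Ube2o.

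**Figure D4:**
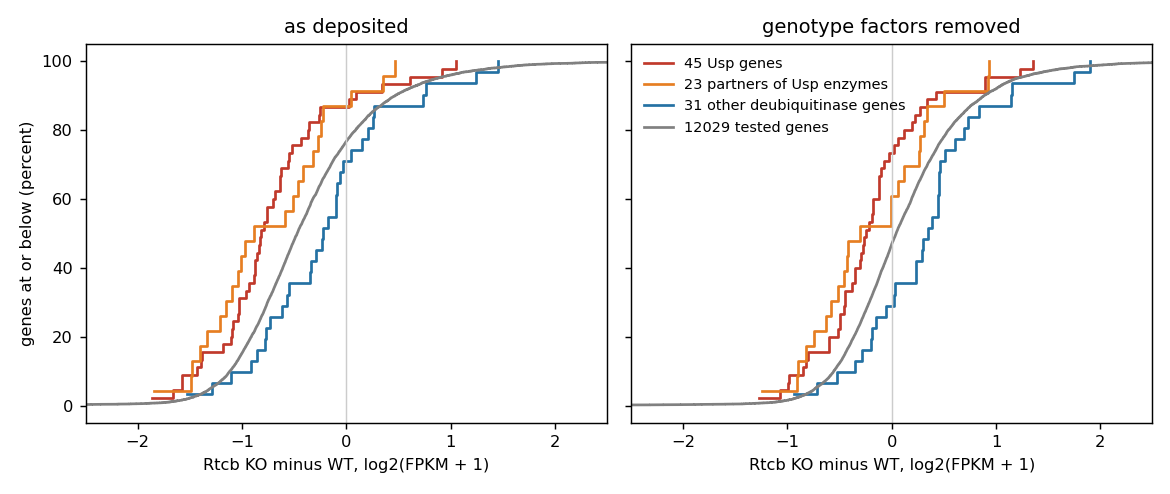
Cumulative share of genes (percent) at or below each log2 difference of Rtcb KO minus WT, as deposited (left) and with the genotype factors removed (right). The 45 Usp genes (red) and 23 partners (orange) lie left of all 12029 tested genes (grey) over most of the range in both panels, with Usp medians of −0.82 and −0.25, and the 31 other deubiquitinase genes (blue) lie right of them for most of the range.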

How the data were processed

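Values are FPKM per gene symbol, which the authors normalized to ERCC spike-ins and deposited as one table, per the labels. Per the submitters' processing notes, TopHat2 2.1.1, Cufflinks 2.2.1 and build mm9 were used; no source used here gives the annotation or how spike-in factors were derived. Per the labels' protocols, cDNA was made by Smart-seq2 and sequenced as 150 bp paired ends. Read depth is unknown. Dividing WT values by 2 and Rtcb KO values by 4/3 returned numbers of 6 significant digits for 100% of values of at least 1 (tolerance 0.01 of the last digit), so each genotype carries 1 factor, known up to powers of 10.

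Genes averaging 1 FPKM or more (12029) were tested on log2(FPKM + 1), a pseudocount of 1, with limma 3.58.1 in R 4.3.3 (lmFit, eBayes with intensity trend), Benjamini-Hochberg adjusted over all of them. The step was tested on simulated data with a common spread for all genes, near-equal rises and falls and no genotype factor. That test does not cover the genotype factor in the deposited values. Python 3.11.15, numpy 2.4.6, pandas 2.3.3 and matplotlib 3.10.9 were used. Sequences came from RefSeq (GRCm38.p6). Errors are SD over 3 libraries.

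Every tested member is named. Values of each library are given for the 6 largest falls and up to 6 largest rises by log2 difference and the 6 highest WT means. Up to 4 genes of smallest p per other list are named, with mean and SD, a log2 difference or the name alone. The members, lists, roles and tests were chosen with earlier results of these data known. Alternatives were pseudocounts of 0.1 and 5, no filter, a 10 FPKM filter, equal totals, median-ratio scaling, removal of the genotype factors, no trend, a replicate block and each library left out.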

Additional observations from a re-analysis of the deposited data

How the results depend on the processing

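Scaling moved the count of lower Usp genes most, and leaving out a library the count of higher ones. For the Usp genes, 19 were lower with median-ratio scaling and 16 with the genotype factors removed, while 4 stayed higher under each scaling; 2 were higher with a filter of 10 FPKM, where fewer genes were tested. The member median was −0.85 and −0.61 with pseudocounts of 0.1 and 5, −0.40 with equal totals, −0.32 with median ratios and −0.25 with the factors removed. Over all tested genes, higher and lower calls were 2283 and 3107 with equal totals, 2746 and 2606 with median ratios, and 3097 and 2161 with the factors removed, and 490 were higher with the 10 FPKM filter. Without 1 library, 1 to 3 members were higher (1 without KO 1 and 1 without KO 3) and 32 to 36 lower, the median ran from −0.82 to −0.76, and all genes gave 774 to 1347 higher and 5607 to 6240 lower.

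Directions turned as follows. With the factors removed, Usp1 was at 0.023, Usp14 at 0.20, Usp29 at 0.060, Usp42 at 0.12, Usp43 at 0.27 and Usp45 at 0.22. With median ratios, Usp14 was at 0.13, Usp29 at 0.018, Usp42 at 0.055, Usp43 at 0.22 and Usp45 at 0.18. With equal totals, Usp14 was at 0.051, Usp43 at 0.14 and Usp45 at 0.11. Without single libraries, Usp50 ran from −0.13 to 0.28 (−0.13, −0.070, −0.0017 and −0.057 without KO 1, KO 3, WT 1 and WT 3) and Usp6nl from −0.064 without WT 3 and −0.018 without KO 1 to 0.20. Of the values of single members under the alternatives, 582 kept their direction and side of the threshold, 56 lost and 1 gained a call in the same direction, and 20 turned. The causes were not tested beyond the rescaling itself.

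Whether equal replicate numbers pair the libraries was not settled. Deviations of same-numbered libraries correlated at 0.141, −0.099 and 0.038, and those of different-numbered libraries at −0.243 to 0.172. With 3 libraries per genotype these values are too few to decide it. With the replicate block, 3 members were higher and 35 lower, and the call lost was that of Usp53 (0.34, adjusted p = 0.0529).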
